A study of Solanum tuberosum with 11 samples.

Results

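The transcripts described here dipped in potato buds 1 day after a dormancy-breaking chemical and were back at or above the control level in the next condition sampled. They were chosen on their measured levels in 3 conditions. The level had to be at least 2 in the control, at most the control level divided by 4 in NG 1-Day, and at least the control level in NG 5-Days. The rule found 184 of the 35091 transcripts in the deposited table, which are 1.20% of the 15348 with a control level of at least 2. Every level in these 3 conditions, every fold among them and every call or p-value for such a fold was fixed in part by that choice. All of these are given as a description. The NG 7-Days level was not used by the rule, but its ratios to the control and to NG 5-Days share a level that was.

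A dormant potato tuber carries buds that do not grow even in favourable conditions. Abscisic acid is the hormone best known for holding buds in that state, and cytokinins are known for ending it. NG, spelled 1-(alpha-ethylbenzy)-3-nitroquanidine in the labels and read here as a nitroguanidine, belongs to a family of synthetic nitroguanidines known for cytokinin-like activity and for forcing early sprouting. The periderm is the corky skin of the tuber, and the apical bud holds the shoot meristem that later makes the sprout.

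RNA was sequenced from thin discs of periderm with the apical bud, taken from greenhouse minitubers of the cultivar Atlantic. In the order of time, the labelled groups are tubers injected with 5 µl of dimethyl sulfoxide (DMSO) alone and sampled at zero time (3 libraries), and tubers that received 10 µg of NG in the same volume of DMSO and were sampled at day 1 (3 libraries), day 4 (2 libraries) and day 7 (3 libraries). DMSO was thus given to all groups, the tubers were intact and dormant and weighed 3 to 5 g, and no DMSO library of a later day is among the samples, so NG and elapsed time cannot be told apart. A disc holds skin, bud and the tissue beneath, and fewer cells of a type and less RNA per cell cannot be told apart in it.

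The authors deposited 1 combined value per transcript and condition, called a level here, in a table whose conditions are named Controls and then NG 1-Day, NG 5-Days, NG 7-Days. No label names a day 5, so NG 5-Days keeps the name it has there, without being taken for day 4. With no value per library there is no SD or n, and depth is unknown. The errors printed are standard errors on the log2 scale that the authors' own test used. The table pairs its identifiers with no gene names, and RefSeq's table for SolTub_3.0, with 32873 genes, matched 0 of them. For that reason the roles of the members, gene groups and tissue markers could not be looked up, and transcripts are named by position. Coordinates are those of the deposited table, with a genome build not given in the sources used here.

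As a group the members were scarce to moderate transcripts, close to 0 at day 1 and later above where they stood in the control. Their median level was 4.16 in the control and 0.503 in NG 1-Day, then 12.1 in NG 5-Days and lastly 8.06 in NG 7-Days. The middle 50% of them lay between 2.62 and 8.35 in the control, between 0.278 and 1.14 in NG 1-Day, between 8.12 and 29.0 in NG 5-Days and between 5.07 and 17.7 in NG 7-Days. In NG 1-Day 132 of the 184 were below a level of 1 and 2 were listed at 0. Only 39 had a control level of at least 10, which is 21.2%, while 55.9% of all transcripts with a control level of at least 2 did.

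Summed over the 184 members, the level was 1980 in the control and 246 in NG 1-Day, then 6257 in NG 5-Days and lastly 4018 in NG 7-Days. In the control they made up 0.313% of the summed level of all transcripts, in NG 1-Day 0.0384%, then 1.02% in NG 5-Days and lastly 0.635% in NG 7-Days. The total over all transcripts lay between 613251 and 642599, so it moved far less than the members did. This total leaves out 5 transcripts marked as too abundant and 8 whose lines disagree on a level.

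**Figure D1:**
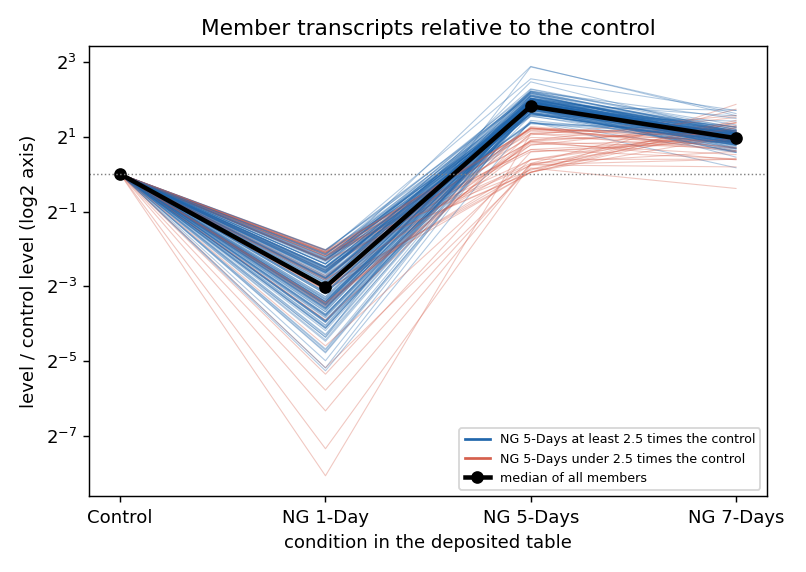
Each thin line is 1 member's level divided by its own control level, on a log2 axis, in the 4 conditions of the deposited table; blue lines are the 141 members at 2.5 times the control or more in NG 5-Days, red lines the 43 others, and the black line is the median. The 2 members listed at 0 in NG 1-Day are left out of the thin lines. The blue lines converge near 4 times the control in NG 5-Days and near 2 times in NG 7-Days.

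Heights above the control clustered. The median ratio of NG 5-Days to the control was 3.50, the middle 50% of the members lay between 2.60 and 3.86, and 118 of the 184 (64.1%) lay between 3 and 4.5. Among all transcripts with a control level of at least 2, 2.20% lay in that band. The band was chosen after the values were seen. The rule asked for a ratio of at least 1, and the 2.20% also counts transcripts below the control, which the rule left out. Whether the rule shaped where above 1 the members gathered was not tested. The control level is the divisor of both ratios the rule used, and its error was wide for the members, as given further on; its part in this ratio was not tested.

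The day 1 dips as a whole were spread over a wide range of NG 5-Days levels. With the NG 5-Days condition left out of the rule there were 316 dips, of which the members are 58.2%. In NG 5-Days, 94 of these 316 had a ratio to the control of 3 to 4, 39 in the lower part of that range and 55 in the upper. Another 54 had a ratio of 0.25 to 0.5 and 34 one of 0.5 to 0.75. Between these ranges lay 16 dips from 0.75 to 1, 16 from 1 to 1.5, 14 from 1.5 to 2, 13 from 2 to 2.5 and 10 from 2.5 to 3. These ranges differ in width, and there was no gap at the control level, where the rule divides the dips.

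**Figure D2:**
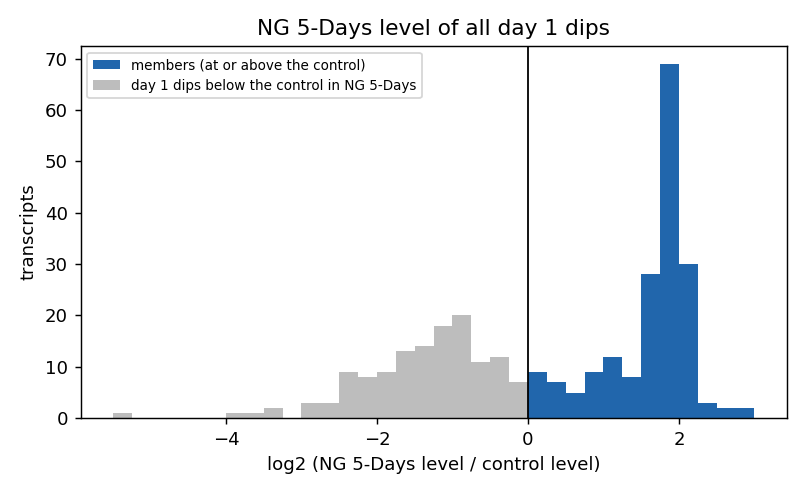
The horizontal axis is the log2 ratio of the NG 5-Days level to the control level and the vertical axis the number of transcripts in bins of equal width, for all 316 day 1 dips; members are blue and the 132 dips below the control are grey. The members pile up near a log2 ratio of 2, and the grey bars spread widely about a ratio near -1.

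The members were also described by their height in NG 5-Days. The split at 2.5 times the control was chosen after the values were seen, so it gets no test. The 141 members above it had a median NG 5-Days level of 3.68 times the control and a middle 50% between 3.37 and 4.01. In NG 7-Days each of these 141 was lower than in NG 5-Days, and in 119 of them the NG 7-Days level was between 0.4 and 0.6 of the NG 5-Days level. The 43 members below the split had a median of 1.71 times the control in NG 5-Days, and 24 of the 43 went on to a still higher level in NG 7-Days. NG 5-Days sets the split and is the divisor of this ratio, and both subsets were near the same NG 7-Days level, so a lower NG 7-Days level above the split and a higher one below it follow from the split and are no finding.

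In NG 7-Days the members were near 2 times the control. The median ratio of NG 7-Days to the control was 1.94 (log2 0.96), with a middle 50% between 1.79 and 2.15, and 156 of the 184 lay between 1.5 and 2.5. Over all transcripts with a control level of at least 2 the median was 1.01, and 8.91% lay in that band, which was also chosen with the values in view. A total of 183 members were above the control, and the exception was at chromosome 6, 14263201 to 14272624. Of all transcripts with a control level of at least 2, 52.4% were above it. So were 131 of the 132 day 1 dips that stayed below the control in NG 5-Days, so members share this with the other dips. The subsets had medians of 1.95 times the control for the 141 and 1.92 for the 43.

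The authors' deposited table calls no member different from the control in NG 7-Days. Of the 184, 116 were tested in that comparison, where 0% of 19964 transcripts were called higher and 0.015% lower, at an adjusted p under 0.05 by the authors' Cuffdiff-style test. By the unadjusted p of the authors' deposited table, 0 of the 116 members passed 0.05 in either direction, against 7 higher and 66 lower among all tested transcripts. The median standard error of this comparison was 0.93 for the members, close to the size of their median log2 ratio. With untested lines added and all adjusted together it was again 0, where 0.0156% of 25689 were called higher and 0.0856% lower. Of the untested members, 5 had an unadjusted p under 0.05. The shift to near 2 times the control is therefore a direction shared by members and not a set of calls. Its divisor, the control level, was used by the rule, and the part of that choice in the shift was not tested. Members come from the same libraries and are not replicates of each other.

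The day 7 level was also set beside values the rule had used. Over all transcripts with a control level of at least 2 the mean of the NG 1-Day and NG 7-Days levels was close to the control level, with a median ratio of 1.01 and 92.2% within 1.3-fold, a width chosen after the values were seen. For the members that ratio had a median of 1.04, and 158 of the 184 (85.9%) were within 1.3-fold. Where that mean equals the control, a transcript near 0 in NG 1-Day stands near 2 times the control in NG 7-Days. Over all these transcripts the median ratio to the control was 0.985 in NG 1-Day and 1.01 in NG 7-Days. Transcripts that change little have a mean near the control by that alone. For members, low in NG 1-Day, the ratio largely restates the NG 7-Days ratio given above. Whether the NG 7-Days level depends on the NG 1-Day level was not tested.

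For the dips that stayed below the control in NG 5-Days, the mean of NG 1-Day and NG 7-Days lay further above the control. These 132 transcripts had a median mean of NG 1-Day and NG 7-Days of 1.42 times the control, and 40 of them (30.3%) were within 1.3-fold. Their median NG 7-Days level was 2.70 times the control, higher than the 1.94 of the members, and 131 of the 132 went higher again after NG 5-Days, while 24 of the 184 members did. In NG 1-Day the groups were close, at a median of 0.123 of the control for the members and 0.110 for the other dips. The difference between the groups in NG 7-Days was not tested, because their choice rests on NG 5-Days and the control.

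**Figure D3:**
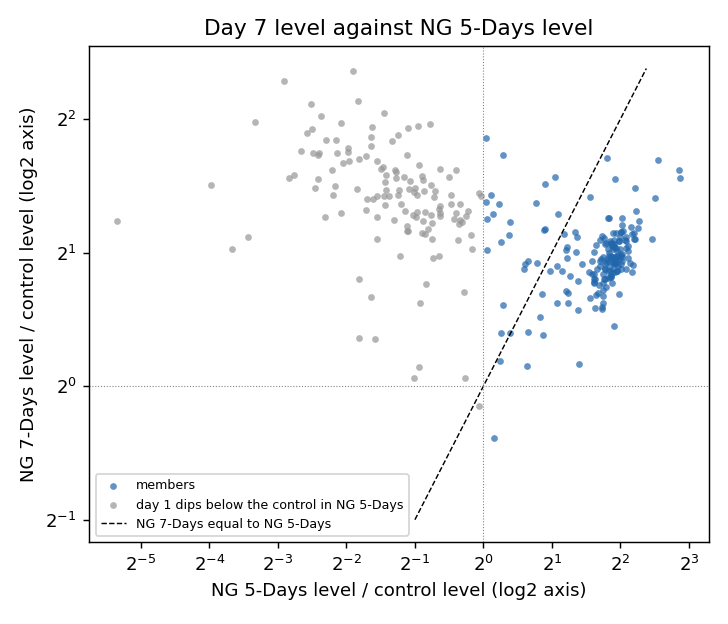
Each point is a day 1 dip, with its NG 5-Days level over the control level on the horizontal axis and its NG 7-Days level over the control level on the vertical axis, both on log2 axes; members are blue, the 132 other dips grey. Most members form a tight cloud near 4 and 2 times the control, to the right of the dashed line of equal levels, while the other dips lie in a wide band above that line.

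Most members stood lower in NG 7-Days than at their NG 5-Days height. The median ratio of NG 7-Days to NG 5-Days was 0.552 (log2 -0.86), where the median over all transcripts with a control level of at least 2 was 0.997, and 160 of the 184 members were lower in NG 7-Days. The authors' deposited table calls 54 of the 122 members tested lower in NG 7-Days, where 1.84% of 19909 transcripts were, and 1 higher, where 2.52% were. The 54 had ratios between 0.364 and 0.557. Members were chosen for an NG 5-Days level at or above the control, and this test shares that NG 5-Days level. The choice itself can therefore tilt the count downward, which was not tested. At an adjusted p under 0.01 the count of lower calls was 21, where 0.804% of 19909 transcripts were called.

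The member whose fall had the lowest adjusted p lies at chromosome 10, 43500651 to 43503905. Its level was 5.08 in the control and 0.554 in NG 1-Day, then 20.1 in NG 5-Days and lastly 8.20 in NG 7-Days. NG 7-Days against NG 5-Days had, by the authors' deposited table, a log2 fold change of -1.29 (standard error 0.29, adjusted p = 0.000334). A like course was seen at chromosome 6, 44765835 to 44766549, with levels of 33.6, 4.85, 112.5 and 51.7 in the same order of conditions (log2 change -1.12 with a standard error of 0.26, and an adjusted p of 0.000652 by the authors' deposited table). Both members were picked out after their values were seen.

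The only member called higher in NG 7-Days against NG 5-Days was at chromosome 4, 54093008 to 54096482. It had a level of 2.11 in the control and 0.434 in NG 1-Day, then 2.19 in NG 5-Days and lastly 4.28 in NG 7-Days. The log2 fold change in the authors' deposited table was 0.97 (standard error 0.32, adjusted p = 0.0397), and it did not pass at 0.01. This member only just met the rule on NG 5-Days, and it too was singled out with its values in view.

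From NG 1-Day the later levels were far higher. The ratio of NG 5-Days to NG 1-Day had a median of 26.8 over the 182 members above 0 in NG 1-Day, and that of NG 7-Days to NG 1-Day a median of 15.3. The authors' deposited table calls 162 of the 165 members tested higher for NG 5-Days against NG 1-Day, where 13.1% of 19705 transcripts were. For NG 7-Days against NG 1-Day the authors' deposited table calls 116 of the 121 tested higher, where 7.44% of 19544 were. The members were chosen for a low NG 1-Day level, so both counts describe the choice and support nothing further.

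The comparisons with the control that the rule used gave fewer calls. In NG 1-Day 79 of the 157 members tested fell against the control in the authors' deposited table, where 1.03% of 19517 transcripts did. With each comparison adjusted alone it was 41, where 0.420% of 19517 were called. In NG 5-Days 11 of the 163 tested rose against the control by the authors' deposited table, where 0.648% of 20223 did. At an adjusted p under 0.01 it was 0 of the 163, where 0.163% of the 20223 rose. With each comparison adjusted alone it was again 0, where 0.114% rose. At an unadjusted p under 0.05, 97 of the 163 were higher, as were 847 of the 20223. These shares were set by the rule, and nothing is read from them. The 11 had ratios to the control between 3.68 and 7.34 and adjusted p-values between 0.0235 and 0.0484 in the authors' deposited table. In NG 7-Days all 11 were lower again, at 0.402 to 0.590 of the NG 5-Days level. All 11 are among the 141 above the split at 2.5 times the control, each of which was lower. Nothing further is read from this fall.

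Members the table left untested had higher control levels. For NG 1-Day against the control the 27 untested members had a median control level of 23.2, and the 157 tested ones of 3.60. For NG 7-Days against NG 5-Days it was 8.23 for the 62 untested members and 3.24 for the 122 tested. All 6 comparisons were tested for 112 members, and none for 4. Why a line was left untested is not stated. Counts of called members therefore leave out many of the abundant ones.

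The most abundant member was PGSC0003DMG400024748, at chromosome 1, 70120996 to 70121776. It had a level of 193 in the control and 28.4 in NG 1-Day, then 704 in NG 5-Days and lastly 405 in NG 7-Days, so it stood at 3.64 and 2.10 times the control in the later conditions, close to the members' medians. The log2 ratio of NG 7-Days to NG 5-Days was -0.80 (standard error 0.31, adjusted p = 0.138 in the authors' deposited table), which does not pass. The other comparisons were not tested for this transcript.

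Next in abundance were members on chromosomes 5 and 9 with weaker peaks. The one at chromosome 5, 44728116 to 44729737, had levels of 136 in the control and 11.6 in NG 1-Day, then 327 in NG 5-Days and lastly 241 in NG 7-Days, a peak of 2.41 times the control. PGSC0003DMG400031534, at chromosome 9, 51758905 to 51759775, had a deeper dip, with levels of 126, 1.58, 153 and 192 in the same order, so that NG 1-Day was 80.1 times below the control. It was back near the control in NG 5-Days, at 1.22 times, and highest in NG 7-Days. Both were called higher for NG 5-Days against NG 1-Day by the authors' deposited table, by log2 4.82 (standard error 0.29) and 6.61 (standard error 0.47), with an adjusted p listed at 0. The rule set that direction, so nothing further is read from these calls.

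A pair of abundant members lies on chromosome 11. The one at 41823412 to 41823995 had levels of 77.6 in the control and 8.01 in NG 1-Day, then 325 in NG 5-Days and lastly 166 in NG 7-Days, a course like that of most of the 141. At 37016885 to 37018226 the levels were 75.7, 13.7, 193 and 152 in the same order, with little difference between the later conditions. On chromosome 10, at 2944621 to 2945591, the levels were 69.6, 9.94, 91.2 and 163, with the highest value in NG 7-Days. None of the 3 was tested in any comparison.

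**Figure D4:**
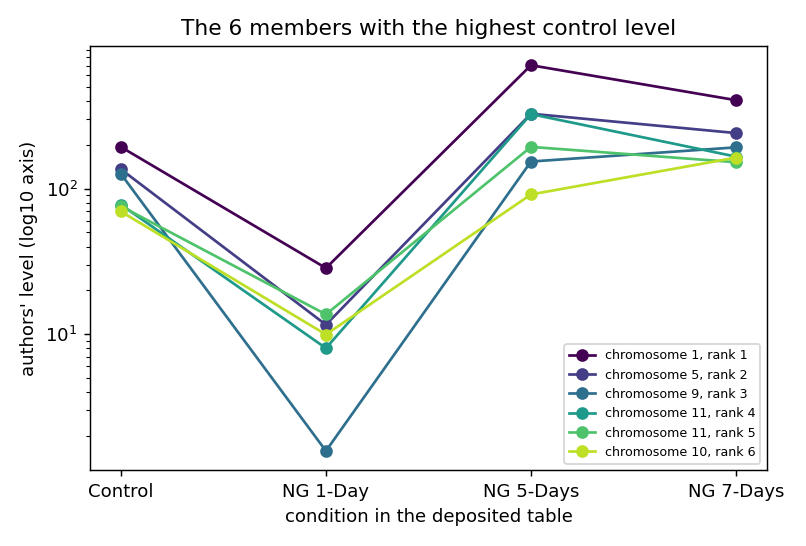
The authors' levels of the 6 members with the highest control level are drawn on a log10 axis for the 4 conditions. All 6 have their lowest value in NG 1-Day, and the members of rank 3 and rank 6, on chromosomes 9 and 10, are the ones whose highest value is in NG 7-Days.

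The 6 deepest dips had control levels between 2.94 and 126. Deeper dips were not of scarcer transcripts in general. Members at or below the control level divided by 8 in NG 1-Day had a median control level of 4.19, and the others 3.93. At chromosome 6, 3775027 to 3776068, the level was 4.04 in the control and 0.0152 in NG 1-Day, then 8.54 in NG 5-Days and lastly 6.21 in NG 7-Days. At chromosome 10, 16117819 to 16119292, it was 2.94, 0.0182, 3.48 and 3.36 in the same order, so the later conditions lay close to the control. The authors' deposited table calls both lower in NG 1-Day than in the control, with log2 fold changes of -8.06 and -7.33, standard errors of 2.47 and 2.21 and adjusted p-values of 0.0231 and 0.0192. Neither call holds at an adjusted p under 0.01 or with that comparison adjusted alone. PGSC0003DMG400015156, at chromosome 3, 36131612 to 36134628, had 3.96 in the control and 0.0726 in NG 1-Day, then 4.75 in NG 5-Days and lastly 8.36 in NG 7-Days, with a smaller error (log2 change of NG 1-Day against the control -5.77 with a standard error of 0.98, and an adjusted p of 3.32e-07 by the authors' deposited table). It was highest in NG 7-Days. These members were chosen for a low NG 1-Day level relative to the control, so the calls against the control describe the choice.

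Both members listed at 0 in NG 1-Day returned, to different heights. The one at chromosome 7, 52150653 to 52158077, had a level of 10.8 in the control, 61.3 in NG 5-Days and lastly 28.7 in NG 7-Days. The one at chromosome 2, 25727503 to 25728667, had 7.58 in the control, 11.8 in NG 5-Days and lastly 8.41 in NG 7-Days. Against a level of 0 no fold can be given. Neither was called lower than the control in NG 1-Day, with adjusted p-values of 0.757 and 0.585 in the authors' deposited table, and both were called higher for NG 5-Days against NG 1-Day, with adjusted p-values of 4.93e-19 and 1.92e-08 in the same table. The rule and the choice of members at 0 set the direction of these comparisons, so nothing further is read from them.

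Peaks well above the common height were few. PGSC0003DMG400012641, at chromosome 2, 46051636 to 46052847, had the highest, with levels of 4.87 in the control and 0.930 in NG 1-Day, then 35.8 in NG 5-Days and lastly 14.4 in NG 7-Days. Its NG 5-Days level was 7.34 times the control (log2 change 2.88 with a standard error of 0.91, and an adjusted p of 0.0292 by the authors' deposited table), and it did not pass at 0.01. At chromosome 7, 2949097 to 2950406, the levels were 4.21, 0.206, 30.6 and 12.9 in the same order, a peak of 7.27 times the control that did not pass (log2 change 2.86 with a standard error of 0.99, and an adjusted p of 0.0596 by the authors' deposited table). Both members were picked for a high NG 5-Days level relative to the control, so nothing further is read from these p-values.

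Lower peaks followed on chromosomes 2 and 11. At chromosome 2, 41854701 to 41856332, the levels were 2.29 in the control and 0.542 in NG 1-Day, then 13.4 in NG 5-Days and lastly 7.44 in NG 7-Days. At chromosome 11, 171241 to 174231, they were 2.36, 0.298, 13.0 and 5.07 in the same order, and at chromosome 11, 16123961 to 16126114, they were 2.71, 0.513, 13.1 and 6.39. By the authors' deposited table the pair on chromosome 11 was lower in NG 7-Days against NG 5-Days, where the levels fell by 1.36 and 1.04 on the log2 scale (standard errors 0.34 and 0.33, adjusted p-values 0.00204 and 0.0297). The second did not pass at 0.01.

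The highest NG 7-Days levels relative to the control came with different courses. At chromosome 2, 41026567 to 41027416, the level was 25.1 in the control and 2.92 in NG 1-Day, then 25.9 in NG 5-Days and lastly 91.3 in NG 7-Days, at 3.63 times the control the highest such ratio of any member. Its fall in NG 1-Day against the control was called in the authors' deposited table (log2 change -3.10 with a standard error of 0.74, and an adjusted p of 0.000944), and NG 7-Days was not tested. A fall in NG 1-Day was required by the rule. At chromosome 6, 48897980 to 48900432, the levels were 2.86, 0.639, 3.48 and 9.49 in the same order. At chromosome 6, 31122708 to 31124831, they were 8.31, 0.936, 28.9 and 27.1, so this one held its height between the later conditions.

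Among the members with the lowest NG 7-Days level relative to the control, 2 had very wide errors, and they were not the only members with wide errors and no call. The one at chromosome 6, 14263201 to 14272624, had levels of 6.76 in the control and 0.187 in NG 1-Day, then 7.55 in NG 5-Days and lastly 5.18 in NG 7-Days, and a log2 standard error of 12.8 for NG 1-Day against the control in the authors' deposited table. The one at chromosome 3, 17071122 to 17080138, had 2.82, 0.413, 7.40 and 3.17 in the same order, with a standard error of 10.7. Neither was called in any comparison.

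The errors behind the levels were uneven across conditions. For the 110 members whose comparisons all gave an error, the median standard error per condition was 0.88 in the control and 0.50 in NG 1-Day, then 0.13 in NG 5-Days and lastly 0.31 in NG 7-Days. Among 4453 transcripts with a control level in the middle range of the members, it was 0.61, 0.26, 0.16 and 0.30 in the same order. The middle 50% of the members lay between 0.76 and 0.97 in the control, above the 0.54 to 0.69 of those transcripts. In NG 1-Day it lay between 0.41 and 0.60, above their 0.23 to 0.30. In NG 5-Days and NG 7-Days the ranges overlapped. These are errors of the authors' model, and whether a wide control error stands for control libraries that differed from each other was not tested. The middle range used was that of all members, while the 110 were tested in every comparison. Tested members had lower control levels: for NG 7-Days against the control their median was 3.16, and 9.32 for untested members. Levels in the other conditions were not matched. The part of level in the wider errors of the 110 was not tested.

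**Figure D5:**
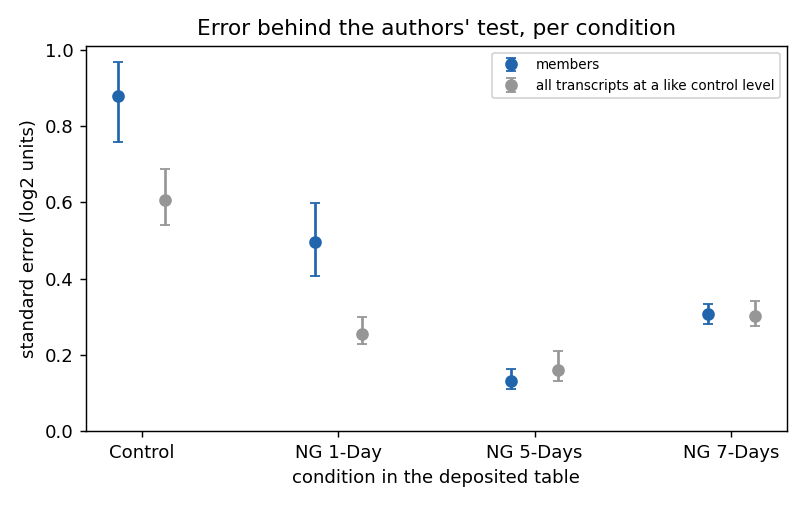
Points are median standard errors per condition, in log2 units, and bars span the middle 50%. Blue is the 110 members with recovered errors, and grey is the 4453 transcripts with a control level in the middle range of all members. The members stand above the grey points in the control and in NG 1-Day, and near them in NG 5-Days and NG 7-Days.

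Depth of the dip and height of the return were set side by side. The 93 members at or below the control level divided by 8 in NG 1-Day had a median NG 5-Days level of 3.64 times the control, and the 91 above it 3.37 times. In NG 7-Days these sets were at 1.92 and 1.98 times the control. Over all transcripts with a control level of at least 2, 4 steps of NG 1-Day level were set out, from shallow to deep: 1163 at 0.5 to 0.75 of the control, 456 at 0.25 to 0.5, 147 at 0.125 to 0.25 and 169 below that. Their median NG 5-Days level was 1.29, 1.74, 2.11 and 1.51 times the control in that order, so it was not highest at the deepest step. The share at or above the control in NG 5-Days was 69.6%, 65.4%, 61.9% and 55.0%, lower at each deeper step, while the share in the band of 3 to 4.5 times was 5.50%, 21.7%, 34.7% and 39.6%, higher at each. These ratios share the control and are a description.

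The thresholds cut through a continuous set on the side of NG 1-Day and of the control level. Nearest inside the NG 1-Day threshold were members at 4.05, 4.06 and 4.09 times below the control, and nearest outside it transcripts at 3.97, 3.92 and 3.92 times below. The first outside, at chromosome 7, 45990381 to 45991439, had levels of 7.24 in the control and 1.82 in NG 1-Day, then 26.6 in NG 5-Days and lastly 13.1 in NG 7-Days, a course like that of most of the 141. Inside the NG 5-Days threshold the nearest ratios to the control were 1.03, 1.03 and 1.03, and outside it 0.978, 0.958 and 0.952. At the minimum control level the nearest members had 2.002, 2.002 and 2.013, and the nearest transcripts outside 1.99, 1.98 and 1.97. Below it lay 733 further transcripts that met the rest of the rule, 98 of them with a control level of at least 1.

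Member loci were shorter than most. The median span of a member's locus in the deposited table was 2578.5 bp, against 3887 bp over all transcripts with a control level of at least 2 and 1764 bp for the dips that stayed below the control. Spans under 1000 bp made up 19.6% of members and 9.76% of all. The span includes introns, and its part in the levels was not tested.

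Members were spread over all 12 chromosomes. They made up 0.568% of the transcripts with a control level of at least 2 on chromosome 12, the lowest share, and 1.54% on chromosome 11, the highest. Chromosome 1 held the most, with 28. There were 2 pairs of direct neighbours, and 13 members had a locus that overlapped that of another transcript, where reads may not be told apart.

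Both members of the pair on chromosome 5 were highest in NG 5-Days. At 45325927 to 45326459 the level was 40.5 in the control and 3.71 in NG 1-Day, then 164 in NG 5-Days and lastly 90.2 in NG 7-Days. At 45327966 to 45328372 it was 11.2, 1.36, 39.9 and 22.5 in the same order. The gap between them is 1507 bp. The first is among the members called higher for NG 5-Days against the control by the authors' deposited table, and the second is not. Whether the pair are copies of each other is not known here, since the table gives no sequence or name.

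The pair on chromosome 4 sits near the start of that chromosome. At 250809 to 253005 the level was 2.08 in the control and 0.228 in NG 1-Day, then 7.80 in NG 5-Days and lastly 2.84 in NG 7-Days, and it was called lower for NG 7-Days against NG 5-Days (by the authors' deposited table, log2 change -1.46 with a standard error of 0.46, and an adjusted p of 0.0278). At 257058 to 257382 it was 5.10, 1.03, 18.7 and 8.69 in the same order, a decline that did not pass (log2 change -1.10 with a standard error of 0.47, and an adjusted p of 0.205 by the authors' deposited table).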

How the data were processed

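Per the labels, total RNA of discs with the apical bud was made into Illumina libraries. The authors deposited a single table, in the layout of Cuffdiff per the file headers, with a level per condition (unit not named), a log2 fold change, a statistic, and the deposited p-value and q-value. No aligner or build is named (not given in the sources used here). The deposited q-values equal a Benjamini-Hochberg adjustment of the p-values over the 118862 lines tested in any of the 6 comparisons, to within 3.32e-06. The standard error of a comparison is the log2 fold change divided by the statistic, and errors per condition were solved by least squares. These steps were tested on data simulated under the same error model. That test does not show whether the authors' errors follow the model. Transcripts marked as too abundant (5) were dropped, and for 8 whose lines disagree on a level the median was taken when the rule was applied. Both kinds were left out of the summed levels and of the transcripts with a control level of at least 2. None of these meets the rule. Python 3.11.15, pandas 2.3.3 and SciPy 1.17.1 were used.

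The members, the named transcripts and the alternatives were chosen with earlier results of these data known. Named are members with the highest control level (6), lowest NG 1-Day (6) and highest NG 5-Days (6) relative to it, highest (4) and lowest (4) NG 7-Days, neighbouring members, and those nearest the thresholds. The labels do not tell if each library had its own tubers. No sequences were used.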

Additional observations from a re-analysis of the deposited data

How the results depend on the processing

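No paired analysis was possible because the deposited table holds 1 combined value per condition and none per library; for the same reason no replicate could be left out. Of the 39 values under an alternative, 24 stayed the same and 15 moved. A move was more than 0.1 for a log2 median, or 1.5-fold for a count or length. Only the log2 medians have a direction, and none of them changed sign. The rule found 482 transcripts with NG 1-Day at most the control level divided by 2, 93 with a divisor of 8, 282 with a control level of at least 1 and 76 with one of at least 5. The median log2 ratio of NG 7-Days to the control was 0.81 with a pseudocount of 1. With each comparison adjusted alone, 41 members were called lower in NG 1-Day than in the control, where 0.420% of 19517 transcripts were. That adjustment called 0 members higher for NG 5-Days against the control or NG 7-Days against NG 5-Days. Of all tested transcripts it called 0.114% and 2.23%. At an adjusted p under 0.01, 0 members were called higher in both of these comparisons, where 0.163% and 1.45% of all tested were. In the second, 21 were called lower, where 0.804% were. With lines marked as untested added, the calls of higher were 21 for NG 5-Days against the control, where 0.618% of all were. They were 179 for NG 7-Days against NG 1-Day, where 8.09% were, and 8 for NG 7-Days against NG 5-Days, where 3.85% were. In the order of transcripts with a control level of at least 2, members formed 4 neighbouring pairs. The causes were not tested. With depth unknown, no counting error can be given for the levels near 0 in NG 1-Day.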

Other observations

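The direct neighbours of members on the chromosome were described with neighbours that are themselves members left out, such as the pairs on chromosomes 4 and 5. Of the 363 others, 219 had a control level of at least 2, and the rest were not assessed. For the 219 the median log2 ratio to the control was -0.03 in NG 1-Day, then 0.03 in NG 5-Days and lastly 0.02 in NG 7-Days, where all transcripts with such a control level had -0.02, -0.02 and 0.02. At most the control level divided by 2 in NG 1-Day were 4.57% of the neighbours and 5.03% of all. At least 2 times the control in NG 5-Days were 4.11% of the neighbours and 5.97% of all.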
